A study of Mus musculus with 40 samples.

Results

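Dopamine receptors are G protein-coupled receptors encoded in the mouse by Drd1, Drd2, Drd3, Drd4 and Drd5, and these 5 genes were followed in hippocampal RNA-seq of 40 mice, out of 40853 genes counted and 28449 tested. The genes were taken by symbol as one receptor family, and the family was selected on measured values of these libraries: Drd2 was lower after deletion of the histone variant H2A.Z than in control mice. The members' values in that comparison are therefore given as a description with no test, and so are the later Drd2 values against the same control and deletion mice.

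Each mouse had virus injected into the hippocampus, and per the study's methods all carried floxed alleles of both H2A.Z genes, although the labels give the control genotype as WT. KA mice received Cre with Myc-tagged H2A.Z.1 whose tail lysines were changed to alanine (4 females, 4 males), so that they cannot be acetylated, and KQ mice received the version with glutamine in place of lysine, which resembles acetylated lysine (3 females, 5 males). WT mice received Cre with unchanged Myc-tagged H2A.Z.1 (4 females, 5 males), and KO mice, labelled H2A.Z.1/H2A.Z.2 KD, received Cre with the empty Myc vector (4 females, 4 males). Myc control mice received the Myc vector without Cre (3 females, 4 males). Cre was driven by the neuronal synapsin promoter and the replacement histones by the general CMV promoter, while the RNA came from whole hippocampal tissue, so cells without deletion contributed reads. In such bulk tissue, fewer cells of a type and less RNA per cell cannot be told apart. Ages and strain were not given in the sources used here. Sequencing gave 24342921 to 45982772 counts per mouse (median 36417112). At the gene level the deletion was not visible in the targeted genes: H2az1 was at 31.0 ± 3.67 CPM (counts relative to the TMM-adjusted library total) in KO females, against 32.2 ± 3.58 CPM in Myc females, and at 31.5 ± 9.37 CPM in KO males, against 32.9 ± 4.38 CPM in Myc males (SD, n = 4, 3, 4 and 4). H2az2 was also not lower in KO mice, with a log2 difference of 0.28 in females (adjusted p = 0.0609, edgeR) and 0.14 in males (adjusted p = 0.35, edgeR). The study also checked the deletion by other measurements, which were not analysed here, and counts from whole tissue cannot tell neurons that lost the genes from cells that kept them. KO below means the libraries so labelled. Of the Myc females, 1 had a low summed level of dentate granule markers (155 CPM, where the other Myc females had 369 and 505 CPM). The choroid plexus gene Ttr ranged from 7.03 to 4104 CPM over the 40 libraries, and values with and without the libraries over 1000 CPM are compared in the closing section.

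Drd1 and Drd5 encode the D1-class receptors, which couple to stimulatory G proteins and raise cyclic AMP, whereas Drd2, Drd3 and Drd4 encode the D2-class receptors, which couple to inhibitory G proteins and lower it. The hippocampus receives dopamine from midbrain neurons and from noradrenergic fibres of the locus coeruleus, and D1-class receptors there are known for their part in synaptic plasticity and memory. Drd5 is widely expressed by hippocampal pyramidal neurons, Drd1 is found in scattered neurons and in the dentate gyrus, and Drd2 is a known marker of hilar mossy cells of the dentate gyrus. H2A.Z is a variant of histone H2A that occupies nucleosomes beside transcription start sites.

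The promoters of Drd5, Drd2 and Drd1 are shown because H2A.Z sits at such regions and because these are the members with enough reads to follow. They are the RefSeq promoters (250 bases before to 50 bases after the RefSeq start, from a GRCm38.p6 table that held all 5 members), each of which matched the GRCm39 genome exactly once. Capitals mark the GC box, searched as GGGCGG and its reverse complement CCGCCC, and sequences read 5′ to 3′ on the strand of the gene.
Drd5 promoter, chr5:38476602-38476901, plus strand: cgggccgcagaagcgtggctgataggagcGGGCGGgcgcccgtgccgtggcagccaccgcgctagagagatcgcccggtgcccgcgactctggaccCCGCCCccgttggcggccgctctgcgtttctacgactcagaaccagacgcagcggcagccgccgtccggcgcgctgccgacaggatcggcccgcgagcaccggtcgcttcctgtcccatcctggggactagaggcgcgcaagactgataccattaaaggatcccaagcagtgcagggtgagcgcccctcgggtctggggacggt
Drd2 promoter, chr9:49251453-49251752, plus strand: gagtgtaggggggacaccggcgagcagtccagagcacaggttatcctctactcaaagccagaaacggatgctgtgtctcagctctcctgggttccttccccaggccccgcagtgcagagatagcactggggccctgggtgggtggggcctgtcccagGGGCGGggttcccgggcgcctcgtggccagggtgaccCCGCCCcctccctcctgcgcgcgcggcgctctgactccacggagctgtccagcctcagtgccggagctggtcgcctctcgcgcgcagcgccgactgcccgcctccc
Drd1 promoter, chr13:54209628-54209927, minus strand: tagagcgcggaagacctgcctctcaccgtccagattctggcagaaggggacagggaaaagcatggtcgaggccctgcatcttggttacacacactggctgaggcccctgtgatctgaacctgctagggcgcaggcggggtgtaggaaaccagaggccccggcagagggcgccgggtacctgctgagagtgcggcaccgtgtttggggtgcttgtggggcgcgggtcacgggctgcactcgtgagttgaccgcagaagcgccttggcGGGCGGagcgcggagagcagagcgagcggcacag
The Drd5 promoter had 38 CG dinucleotides, more than 95% of the 32851 RefSeq promoters in the table, whose median was 7. The Drd2 promoter and the Drd1 promoter printed here had 23 each, more than 78.5% of promoters. A second RefSeq promoter of Drd1, 54208750 to 54209049 on the same chromosome, had 6, more than 43.6% of promoters and below that median. The Drd4 promoter had 15, while the Drd3 promoter had 2. The GC box was found in the promoters of Drd1, Drd2, Drd4 and Drd5, which hold 1, 2, 3 and 2 copies, and in 35.7% of all promoters. No TATA box (TATAAA, either strand, in 13.6% of promoters) and no cyclic AMP response element (TGACGTCA, in 1.79%) was found in these 300 bases of any member. By GENCODE annotation on GRCm39, Drd5 spans positions 38476710 to 38479861 of chromosome 5, Drd2 spans 49251654 to 49319477 of chromosome 9, Drd1 spans 54204872 to 54209760 of chromosome 13, Drd3 spans 43574389 to 43643295 of chromosome 16, and Drd4 spans 140871902 to 140876377 of chromosome 7. Drd5 shares its span with the noncoding genes 4930487D11Rik (same strand) and Gm26560 (opposite strand), and the Drd2 span holds Gm46111 on the opposite strand. The Drd3 span overlaps Gm54424 on the same strand, which was not among the genes counted. The strand setting of the counting and its handling of reads shared between genes were not given in the sources used here. Shared reads could have gone to a partner or to neither gene. The partners had 564 counts over all mice for Gm26560, 19 for 4930487D11Rik and 15 for Gm46111, against 17926 for Drd5 and 2333 for Drd2. These counts do not show how many reads were left unassigned.

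Drd5 was the receptor gene with the highest level per length of exon in control mice. Per kilobase of annotated exon, Drd5 stood at 6.18 ± 0.959 CPM in Myc mice, Drd1 at 0.967 ± 0.181, Drd2 at 0.622 ± 0.171, Drd4 at 0.0323 ± 0.0212 and Drd3 at 0.0265 ± 0.0164 (SD, n = 7, both sexes). Drd5 stood apart from Drd1, and Drd2 from Drd4, by far more than these SDs. Drd1 and Drd2 differed by about the sum of their SDs, and Drd4 and Drd3 did not differ beyond theirs. Total counts per mouse ranged from 207 to 945 for Drd5, from 85 to 732 for Drd1 and from 20 to 119 for Drd2, but from 1 to 19 for Drd4 and from 0 to 18 for Drd3, so the last pair carries large counting error. In the Myc female with 0 Drd3 counts, fewer than 3 counts would not have been told from 0. None of the 5 members passed the test (edgeR quasi-likelihood, Benjamini-Hochberg adjusted p under 0.05 over all genes tested) between Myc females and Myc males, also at an unadjusted p under 0.05 and in DESeq2, where 0.0457% of all genes passed in edgeR. Their log2 differences, females over males, lay between -0.09 and 0.35.

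**Figure D1:**
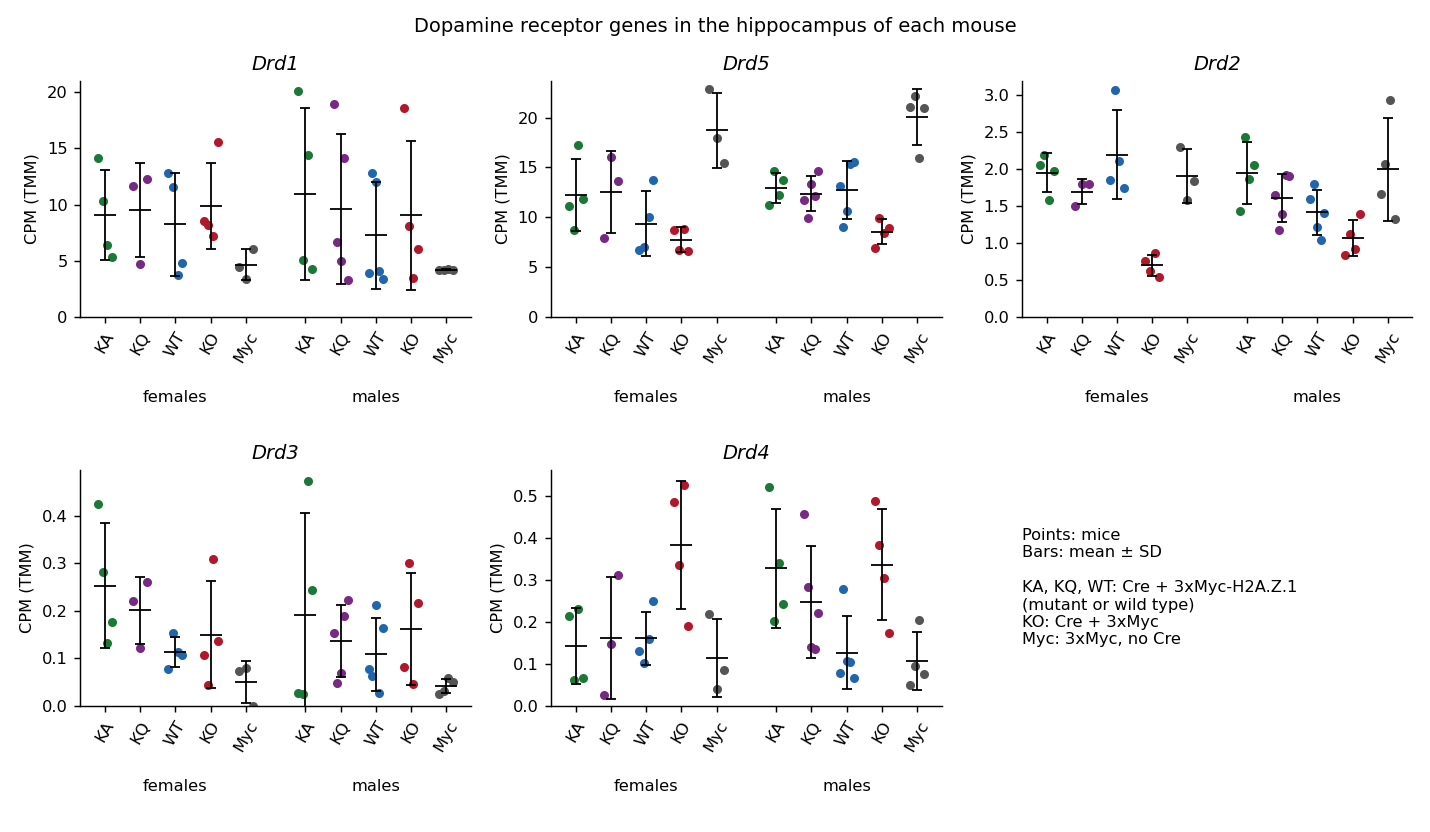
TMM-scaled CPM (y axes, from 0) of each dopamine receptor gene in each mouse, by sex and virus (x axes). Points are mice and bars are the mean and SD. Drd5 was highest in the Myc mice (15.4 to 22.8 CPM), Drd2 lowest in KO females (0.545 to 0.864 CPM), and Drd1 was evenly low in Myc males (4.20 to 4.25 CPM) but spread up to 20.1 CPM among mice given Cre.

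Deletion of H2A.Z compared KO with Myc mice. Myc mice received no Cre virus, so deletion and the Cre virus itself cannot be told apart here or in later comparisons with Myc. Drd5 and Drd2 were lower in KO mice of both sexes, while the levels of Drd1, Drd3 and Drd4 were higher on average. For Drd5, the widely expressed D1-class receptor, KO females had 8.78, 6.69, 8.85 and 6.59 CPM, against 22.8, 18.0 and 15.4 CPM in Myc females. KO males had 6.92, 9.92, 8.46 and 8.95 CPM, against 21.1, 22.2, 15.9 and 21.0 CPM in Myc males. No KO mouse reached the lowest Myc mouse in either sex, and the KO means were 41.2% of the Myc mean in females and 42.7% in males (log2 fold change -1.28 ± 0.23 and -1.23 ± 0.22, SE).

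Drd2 was at 0.754, 0.625, 0.864 and 0.545 CPM in KO females, against 2.30, 1.58 and 1.83 CPM in Myc females. In males the values were 0.838, 1.12, 0.912 and 1.38 CPM in KO mice, against 1.66, 2.06, 2.93 and 1.32 CPM in Myc mice. The female groups were well apart, whereas in males the highest KO mouse lay just above the lowest Myc mouse. On the log2 scale the fitted change was -1.46 ± 0.26 (females) and -0.92 ± 0.24 (males, SE).

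Drd1 averaged 9.88 ± 3.86 CPM in KO females and 4.65 ± 1.37 CPM in Myc females, and 9.05 ± 6.64 CPM in KO males and 4.22 ± 0.0234 CPM in Myc males (SD, n = 4, 3, 4 and 4). Drd4, a D2-class receptor with low counts, averaged 0.384 ± 0.152 CPM in KO females and 0.114 ± 0.0924 CPM in Myc females, and 0.336 ± 0.132 CPM in KO males and 0.107 ± 0.0682 CPM in Myc males. Its groups overlapped in both sexes, and its female log2 fold change of 1.59 became 2.56 without Myc mouse 11. Drd3 ranged from 0.0446 to 0.309 CPM in KO females, against 0 to 0.0791 CPM in Myc females, and from 0.0468 to 0.300 CPM in KO males, against 0.0251 to 0.0587 CPM in Myc males.

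Cell type markers moved in the same comparison, in which 18.1% of all genes rose in females and 17.2% in males (edgeR). The summed level of 8 general neuronal markers was 3359 to 5842 CPM in KO females, against 7919 to 8520 CPM in Myc females, and 4005 to 6606 CPM in KO males, against 7752 to 8340 CPM in Myc males, and those markers had medians of -0.61 (females) and -0.54 (males) on the log2 scale. For CA3 markers the medians were -1.02 (females) and -0.81 (males), for CA2 markers -0.82 and -1.17, for CA1 markers -0.31 and -0.41, and for interneuron markers -0.82 and -0.64. Microglial markers were at 1216 to 2148 CPM in KO females, against 282 to 446 CPM in Myc females, and at 1340 to 2425 CPM in KO males, against 277 to 358 CPM in Myc males. Astrocyte markers were at 6139 to 11300 CPM in KO females, against 3361 to 4110 CPM in Myc females, and at 5671 to 9175 CPM in KO males, against 3430 to 3780 CPM in Myc males, and 4 of 5 rose in each sex. Of the choroid plexus markers, 10 of 10 rose in females (median 5.11 on the log2 scale, with sums of 62.8 to 4057 CPM in KO females, against 25.5 to 46.2 CPM in Myc females), whereas 0 of 10 passed in males. Thalamic markers rose in 5 of 6 cases in females and 1 of 6 in males. The summed level of the 6 hilar mossy cell markers overlapped between the groups (110 to 167 CPM in KO females, against 156 to 209 CPM in Myc females, and 125 to 183 CPM in KO males, against 161 to 198 CPM in Myc males), and so did that of dentate granule markers (322 to 429 CPM in KO females, against 155 to 505 CPM in Myc females). Gene by gene the mossy cell list had a median log2 fold change above 0 (0.30 in females, 0.25 in males), the opposite side from its summed level. Of these 6 markers, 3 rose and 1 fell in females, and 2 rose and 0 fell in males (edgeR). The part of these cell type changes in the receptor values was not tested.

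Replacement with H2A.Z.1 was compared with KO to ask whether a virally supplied histone changes receptor expression, which uses the KO mice of the selecting comparison again. Drd5 was partly higher. In females it stood at 11.2, 8.73, 17.3 and 11.9 CPM in KA mice, at 7.96, 16.0 and 13.7 CPM in KQ mice and at 6.68, 7.04, 10.0 and 13.7 CPM in WT mice, against 6.59 to 8.85 CPM in KO mice. Drd5 rose with KA (log2 fold change 0.67 ± 0.22 SE, adjusted p = 0.0326, edgeR) and with KQ (0.70 ± 0.23, adjusted p = 0.0393), but WT did not pass (0.28 ± 0.22, adjusted p = 0.457), and females of each replacement group overlapped with KO females. The calls rested on few mice: 5 of 8 omissions of a single mouse ended the KA call and 5 of 7 the KQ call. Without KA mouse 35 the KA value was 0.46 (adjusted p = 0.198), and without KQ mouse 37 the KQ value was 0.48 (adjusted p = 0.298).

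In males Drd5 stood at 11.2, 14.6, 12.3 and 13.7 CPM in KA mice, at 11.7, 9.94, 13.4, 12.2 and 14.7 CPM in KQ mice and at 13.2, 8.98, 10.6, 15.3 and 15.6 CPM in WT mice, against 6.92 to 9.92 CPM in KO mice. The KA and KQ males lay above the KO males without overlap, KQ by a narrow margin. WT passed the test over KO (0.57 ± 0.21 SE, adjusted p = 0.0464, edgeR), and KA (0.60 ± 0.22, adjusted p = 0.0541) and KQ (0.53 ± 0.21, adjusted p = 0.0622) fell just short. Leaving out 1 mouse at a time gave adjusted p values of 0.0203 to 0.145 for WT over KO in males, and 7 of the 9 omissions ended the call. Averaged over the sexes, a contrast added after the data were seen, Drd5 was higher than KO with WT (0.42 ± 0.15 SE, adjusted p = 0.0283, edgeR), KA (0.63 ± 0.15, adjusted p = 0.00164) and KQ (0.62 ± 0.15, adjusted p = 0.00209). The KA and KQ averages passed in each of the 16 fits that left out a single mouse, and WT in 10 of 17. Drd5 of the replacement mice was higher at higher sample numbers in the labels, a pattern that was not tested. Its medians were 8.98, 13.5 and 14.2 CPM for numbers 1 to 20, 21 to 40 and 41 to 46 (n = 9, 12 and 4). KO mice had 7.85, 8.46 and 8.95 CPM in the same order (n = 4, 3 and 1).

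Counted over Drd1, Drd3, Drd4 and Drd5, 3 of 24 tests against KO in single sexes passed in edgeR, all of them Drd5. The shares of all genes that passed were 14.5% for WT, 15.3% for KA and 13.0% for KQ in females, and 19.5% for WT, 15.8% for KA and 21.4% for KQ in males. For the averages over the sexes the shares were 30.6% for WT, 29.2% for KA and 31.4% for KQ, where 2 of 4 members passed with WT (Drd4 and Drd5) and 1 of 4 with KA and with KQ (Drd5). None of the 12 differences between the sexes in these contrasts passed in edgeR, at an unadjusted p under 0.05 or in DESeq2, and of all genes 0% passed in edgeR. In single sexes, 9 of the 24 tests against KO had an unadjusted p under 0.05, beside 7504 to 9103 of the 28449 genes in each comparison. DESeq2 called 6 of the 24, beside 4581 to 6534 genes in each comparison.

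Against Myc mice, which the selecting comparison also used, mean Drd5 was lower with each replacement. WT females were at 50% of the Myc mean, KA females at 65.4% and KQ females at 66.9%, and WT males were at 63.5%, KA males at 64.6% and KQ males at 61.8%. Drd5 was lower than Myc in WT females (log2 fold change -1.01 ± 0.23 SE, adjusted p = 0.00642, edgeR), WT males (-0.65 ± 0.20, adjusted p = 0.0474) and KQ males (-0.70 ± 0.20, adjusted p = 0.0348). Leaving out single mice ended the call in 6 of 9 fits for WT males and in 6 of 9 for KQ males (highest adjusted p 0.153 and 0.112), but in 0 of 7 for WT females. KA males (-0.63 ± 0.21, adjusted p = 0.0618), KA females (-0.62 ± 0.23, adjusted p = 0.0921) and KQ females (-0.58 ± 0.25, adjusted p = 0.158) did not pass. Of the 24 tests of members against Myc, 3 passed in edgeR, all Drd5, beside 9.38% of all genes for WT, 7.65% for KA and 5.68% for KQ in females, and 5.34% for WT, 7.89% for KA and 5.13% for KQ in males. An unadjusted p under 0.05 was found in 14 of the 24, beside 5359 to 7102 of the 28449 genes in each comparison. In KA males and in KQ males these were Drd1, Drd3 and Drd4, with values above Myc, and Drd5. DESeq2 called 4 of the 24, beside 2180 to 3679 genes in each comparison. The order of Drd5 means in each sex was KO lowest, the 3 replacements next and Myc highest. General neuronal markers had the same order of medians: in females 6315 CPM with KA, 6564 CPM with KQ, 6126 CPM with WT, 4819 CPM with KO and 8160 CPM with Myc, and in males 6626, 7259, 6824, 5584 and 8066 CPM in the same sequence of groups. Their part in the Drd5 order was not tested.

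Compared with Drd5, Drd2 lay nearer the Myc level in replacement females and KA males, and less clearly so in KQ and WT males. This difference was not tested. In females it stood at 2.06, 2.18, 1.57 and 1.97 CPM with KA, 1.49, 1.79 and 1.79 CPM with KQ and 1.85, 3.06, 2.10 and 1.74 CPM with WT, all above the 0.545 to 0.864 CPM of KO females and mostly within or near the 1.58 to 2.30 CPM of Myc females, except for WT female 20 at 3.06 CPM. In males it stood at 1.43, 2.43, 1.86 and 2.05 CPM with KA, 1.64, 1.18, 1.40, 1.92 and 1.90 CPM with KQ and 1.59, 1.80, 1.21, 1.04 and 1.41 CPM with WT, against 0.838 to 1.38 CPM with KO and 1.32 to 2.93 CPM with Myc. KA males lay above KO males, whereas KQ and WT males overlapped with them. As percentages of the Myc mean, females were at 102% with KA, 88.9% with KQ, 115% with WT and 36.6% with KO, and males at 97.5% with KA, 80.6% with KQ, 70.8% with WT and 53.3% with KO. Because these values share the KO and Myc mice by which the family was selected, they carry no test.

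**Figure D2:**
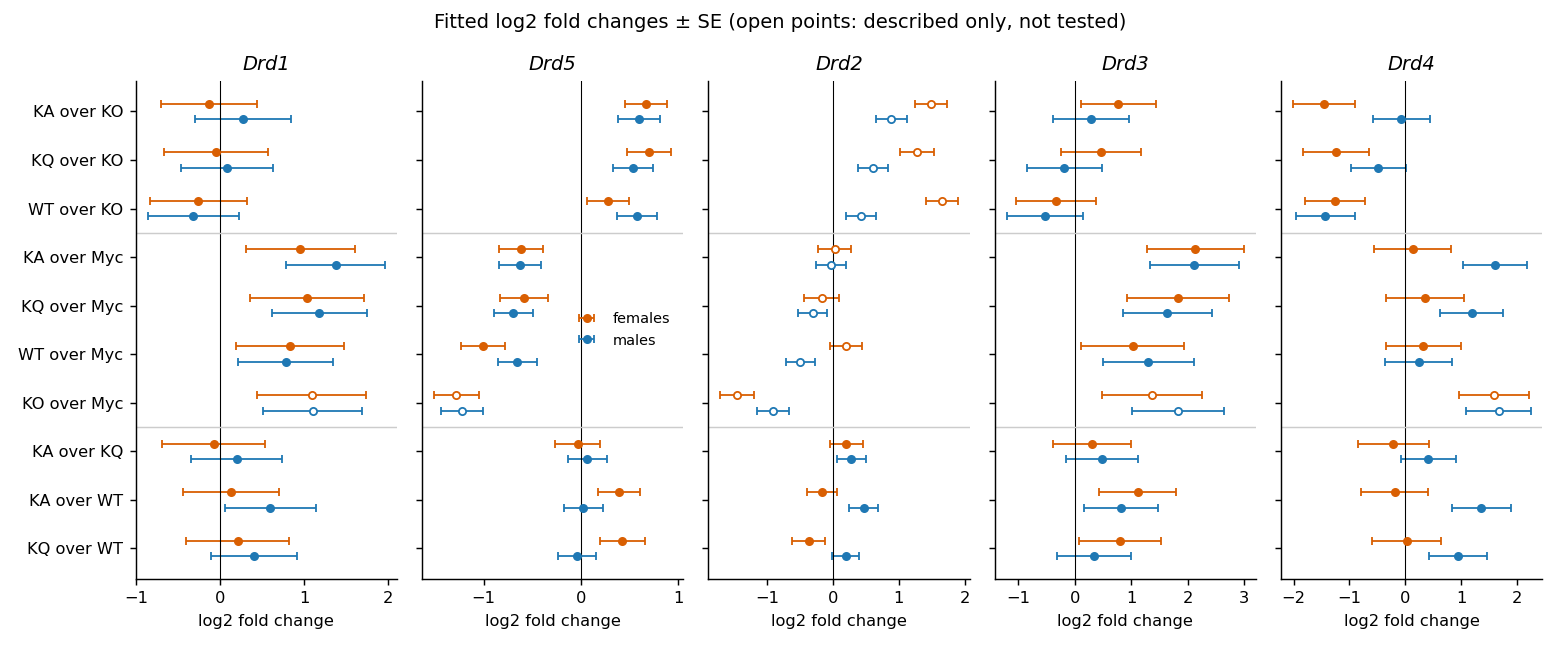
Fitted log2 fold changes with SE (x axes) of the 5 receptor genes in each comparison (rows), in females and males. Open points are values described with no test: KO over Myc for each gene, and Drd2 against KO or Myc. Filled points against KO or Myc share those mice with the selection. Drd5 lay above 0 in the 6 comparisons with KO and below 0 in the 6 replacement comparisons with Myc, and KA over KQ was -0.03 in females and 0.07 in males, while females stood at 0.39 for KA over WT and 0.42 for KQ over WT.

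The mutants were set against each other and against WT to ask whether the acetylation sites of H2A.Z.1 matter for receptor expression, and these comparisons do not use the mice of the selection. None of the 30 tests in single sexes passed in edgeR or in DESeq2, where Drd2, Drd3 and Drd4 had no adjusted p for KA over KQ in males. An unadjusted p under 0.05 was found in 2 of the 30, beside 595 to 2993 of the 28449 genes in each of the 6 comparisons. Of all genes 0% passed in edgeR in each of the 6 comparisons, while DESeq2 called 4 to 20 genes, none of them a receptor gene. Drd2 with KA over KQ stood at 0.20 on the log2 scale (SE 0.25, 95% interval -0.30 to 0.71, adjusted p = 1, edgeR) in females and of 0.28 (SE 0.22, interval -0.17 to 0.72, adjusted p = 0.679) in males, and the difference between the sexes was -0.07 (SE 0.33, interval -0.75 to 0.60, adjusted p = 0.984). These intervals leave room for a difference of more than 1.5 times in Drd2 between KA and KQ. Drd5, with more reads, was bounded more closely: KA over KQ was -0.03 (interval -0.50 to 0.43) in females and 0.07 (interval -0.35 to 0.48) in males.

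The comparisons below an unadjusted p of 0.05 were both KA over WT in males. Drd2 averaged 1.94 ± 0.417 CPM in KA males and 1.41 ± 0.299 CPM in WT males (SD, n = 4 and 5, log2 fold change 0.46 ± 0.22 SE, adjusted p = 0.939, edgeR), and Drd4 averaged 0.327 ± 0.142 CPM in KA males and 0.126 ± 0.0870 CPM in WT males (1.36 ± 0.53, adjusted p = 0.939). In females the same contrast was -0.17 ± 0.23 for Drd2 and -0.19 ± 0.60 for Drd4, and the difference between the sexes did not pass for either (adjusted p = 0.999 for both). Averaged over the sexes, none of 15 tests passed in edgeR or DESeq2, and 1 (Drd3, KA over WT, log2 fold change 0.97 ± 0.47 SE, adjusted p = 0.938, edgeR) had an unadjusted p under 0.05. None of the 15 differences between the sexes passed by either tool or at an unadjusted p under 0.05.

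Drd1, the D1-class receptor best known from the striatum, varied widely within each group given Cre. Myc males were tightly grouped, at 4.20, 4.22, 4.25 and 4.21 CPM, and Myc females had 4.49, 3.36 and 6.09 CPM. Among mice given Cre, by contrast, KO females had 8.54, 8.14, 7.22 and 15.6 CPM and KO males 18.6, 8.10, 3.48 and 6.01 CPM. The replacement groups spread as widely. KA females had 14.1, 10.4, 6.39 and 5.33 CPM, and KA males 20.1, 5.09, 14.4 and 4.26 CPM. KQ females had 11.6, 4.68 and 12.3 CPM, and KQ males 19.0, 6.69, 5.02, 14.1 and 3.25 CPM. WT females had 12.8, 11.5, 3.77 and 4.80 CPM, and WT males 3.93, 12.8, 12.1, 4.10 and 3.37 CPM. In all, 20 of 33 mice given Cre exceeded the highest Myc mouse, and each of the 8 groups given Cre held between 2 and 4 such mice. No tested contrast of Drd1 passed. The replacements over Myc had log2 fold changes of 0.78 to 1.38 with SEs of 0.56 to 0.68, and the lowest adjusted p was 0.16 (KA males, edgeR).

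High Drd1 values lay mostly among low sample numbers, a pattern that was not tested. The labels number the samples, and of the mice given Cre, 12 of 13 numbered 1 to 20 exceeded the highest Myc mouse, against 7 of 15 numbered 21 to 40 and 1 of 5 numbered 41 to 46. Their medians were 11.6, 5.33 and 4.26 CPM in that order. The labels do not say what the numbers stand for. The 2 Myc mice numbered 1 to 20 were at 4.20 and 4.49 CPM, in the range of the later Myc mice. With the number range as a covariate, the Drd1 values of the replacements over Myc still did not pass, with adjusted p values within the 0.0838 to 0.708 found over the 8 alternative settings of those 6 contrasts.

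**Figure D3:**
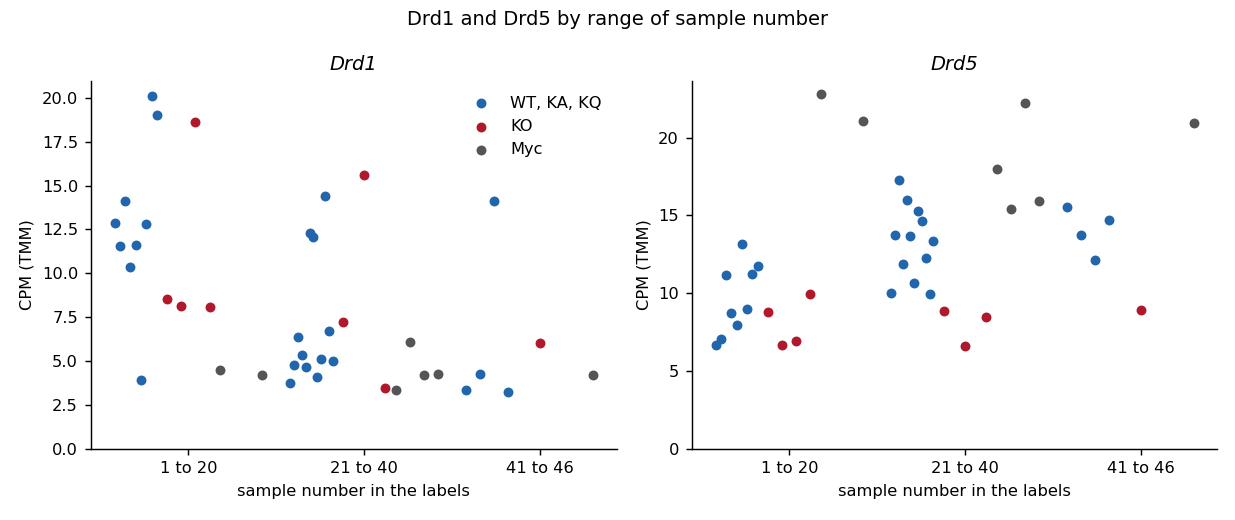
TMM-scaled CPM (y axes, from 0) of Drd1 and Drd5 in each mouse, by range of sample number (x axes) and by virus, with the 3 replacement groups in 1 colour. Among mice given Cre the median of Drd1 was 11.6 CPM for numbers 1 to 20, 5.33 CPM for 21 to 40 and 4.26 CPM for 41 to 46, while for Drd5 it was 8.78, 12.3 and 13.7 CPM. For Drd5 the replacement groups alone had medians of 8.98, 13.5 and 14.2 CPM, and KO mice 7.85, 8.46 and 8.95 CPM.

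The genes most like Drd1 over the 40 mice, by Pearson correlation of log2 CPM among 15934 genes with a mean of at least 1 CPM, were Rprm (r = 0.94), Ppl (0.91), Ndc1 (0.91), Gm13715 (0.84) and Rassf8 (0.84). The first 3 also led when each gene was taken as its deviation from the group mean, with r = 0.94 for Ppl, 0.93 for Rprm and 0.92 for Ndc1. Rprm encodes reprimo, a cell cycle inhibitor, Ppl encodes periplakin, a cytoskeletal linker, and Ndc1 encodes a nuclear pore protein. Rprm ranged from 16.4 to 19.7 CPM in Myc males but from 22.4 to 101 CPM in KA males, from 20.1 to 110 CPM in KQ males, from 17.0 to 79.7 CPM in WT males and from 18.9 to 103 CPM in KO males. Summed striatal markers lay between 81.8 and 108 CPM in KO males and between 137 and 155 CPM in Myc males, while the female groups overlapped (82.4 to 121 CPM in KO females, against 116 to 126 CPM in Myc females). These correlations describe shared variation over libraries that also share depth, virus and number range.

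**Figure D4:**
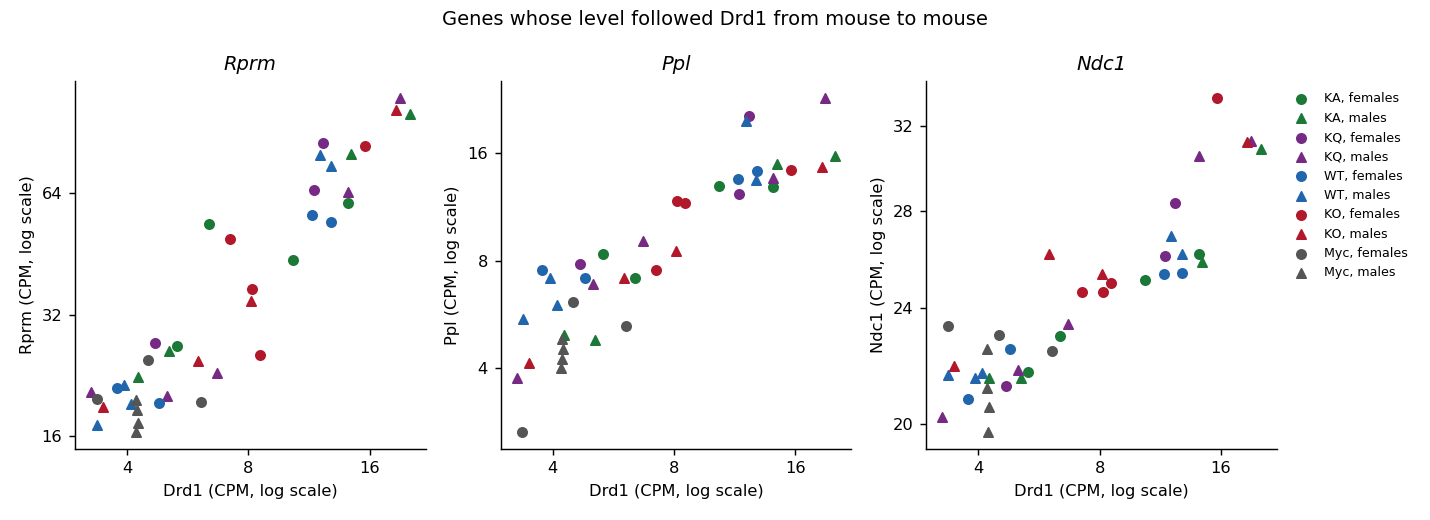
Rprm, Ppl and Ndc1 (y axes, CPM on a log scale) against Drd1 (x axes, CPM on a log scale) in each of the 40 mice, with colour for the virus and circles for females and triangles for males. The Myc mice sit at the low end (Drd1 from 3.36 to 6.09 CPM), and mice of each group given Cre spread along the diagonal, with r of 0.94, 0.91 and 0.91 over all mice.

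For Drd5 the most alike genes over all mice were Nhsl1 (r = 0.91), Arhgef25 (0.88), Ksr1 (0.87), Pcdh1 (0.87) and 2810032G03Rik (0.87), and within groups Adra1d (0.82), Arhgap39 (0.81) and Nhsl1 (0.81). Adra1d encodes an alpha-1 adrenergic receptor, Ksr1 a scaffold of the Ras-MAP kinase cascade, and Pcdh1 a protocadherin. For Drd2 they were E130008D07Rik (0.77), 2810021J22Rik (0.76), Cdkl1 (0.76), LOC118567337 (0.75) and Tubg2 (0.74), while within groups the highest were Csgalnact1 (0.53), Col15a1 (0.53) and Tcerg1l (0.52). Csgalnact1 and Col15a1 had r of 0.26 and -0.14 over all mice, so their likeness to Drd2 was weaker over all mice than within groups.

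Drd4 and Drd3, both D2-class, had too few counts for close comparison. Drd4 had 5, 4, 7 and 7 counts in WT females, against 18, 15, 17 and 7 in KO females, and 3, 9, 4, 4 and 2 counts in WT males, against 18, 14, 13 and 4 in KO males. In CPM, WT females averaged 0.160 ± 0.0635 and KO females 0.384 ± 0.152, and WT males 0.126 ± 0.0870 and KO males 0.336 ± 0.132 (SD). WT over KO did not pass in females (log2 fold change -1.26 ± 0.54 SE, adjusted p = 0.116, edgeR) or males (-1.43 ± 0.53, adjusted p = 0.051), though without WT mouse 10 the male value was -1.91 (adjusted p = 0.0148) and in DESeq2 its adjusted p was 0.0389. Averaged over the sexes, again a contrast added after the data were seen, Drd4 was lower with WT than with KO (-1.35 ± 0.38, adjusted p = 0.0054, edgeR), and this passed in each of 17 fits without 1 mouse. KA and KQ did not pass (-0.76 ± 0.38, adjusted p = 0.133, and -0.86 ± 0.38, adjusted p = 0.0858), but KQ passed in 2 of 16 such fits, those without KQ female 38 (-1.30, adjusted p = 0.0214) or KQ male 8. KA over KO in females passed in 1 of 8 fits, that without KO female 34 (adjusted p = 0.042). No test of Drd4 between KA or KQ and WT passed, and for KA over KO the sexes stood at -1.45 in females and -0.07 in males, a difference that did not pass (adjusted p = 0.973). KA males, at 19, 8, 13 and 9 counts, overlapped with KO males.

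Drd3 ranged from 0.131 to 0.425 CPM in KA females and from 0.0253 to 0.472 CPM in KA males, against 0 to 0.0791 CPM in Myc females and 0.0251 to 0.0587 CPM in Myc males. KA over Myc had the largest fitted log2 fold changes of Drd3, 2.14 ± 0.86 in females (SE, adjusted p = 0.123, edgeR) and 2.12 ± 0.79 in males (adjusted p = 0.0933). Neither passed, and with 1 or 2 counts in each Myc male the size of the change rests on the handling of low counts. Without KA male 26 the male value was 1.17 (adjusted p = 0.499), and without KA male 25 it was 2.49 and passed (adjusted p = 0.0359).

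The nearest tested gene on each side of each receptor gene was compared between KO and Myc. Some of these lay far off: Tmprss5 was 222418 bases from Drd2, E130119H09Rik 134898 bases from Drd1 and Tigit 89880 bases from Drd3. The others lay within 38195 bases. Deaf1, a transcription factor gene on the opposite strand whose span begins 713 bases beyond that of Drd4, fell in KO mice (log2 fold change -0.51 ± 0.08 SE in females, adjusted p = 7.07e-06, and -0.48 ± 0.08 in males, adjusted p = 4.51e-06, edgeR), while the Drd4 values were higher. On the other side of Drd4, Sct, which encodes the hormone secretin, passed in both sexes (adjusted p = 0.0293 in females and 0.00349 in males) on very few counts. It had 35 counts over the KO females, 26 of them in 1 mouse and 0 in another, against 1 count over the Myc females, and 41 counts over the KO males (5 to 18 each), against 1 over the Myc males. Beside Drd3, Tigit, an immune receptor gene, rose (4.18 ± 0.88, adjusted p = 0.00038, and 5.41 ± 0.79, adjusted p = 1.81e-06), and Qtrt2, a tRNA-modifying enzyme subunit gene, did not pass (0.00 ± 0.10 and -0.14 ± 0.09). The neighbours of Drd2 did not pass in either sex, with Tmprss5 at 0.38 ± 0.29 and 0.30 ± 0.27 and Ankk1 at 0.82 ± 1.23 and 0.79 ± 1.13. Ankk1 had 9 counts over the KO females, against 3 over the Myc females, and 7 against 4 in males. Those of Drd5 also did not pass, with Otop1 at 1.44 ± 0.65 and 0.82 ± 0.56 and Slc2a9 at 0.36 ± 0.21 and 0.16 ± 0.19. Beside Drd1, Sfxn1 did not pass, and E130119H09Rik passed in females (42 counts over 4 KO mice, against 3 counts over 3 Myc mice, adjusted p = 0.0281) and did not pass in males (adjusted p = 0.93). The difference between the sexes was not tested. The fitted values of the neighbours of Drd2 and Drd5 were above 0, but none passed, so no direction is drawn from them.

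Other genes of dopamine signalling were counted in lists of 66 genes. In KO over Myc, 31 were lower and 7 higher in females, and 33 were lower and 9 higher in males, where 16.5% of all genes were lower and 18.1% higher in females and 14.4% lower and 17.2% higher in males. Of 21 genes of receptor coupling and desensitisation, 12 fell and 3 rose in females and 12 fell and 4 rose in males, with medians of -0.36 and -0.29 on the log2 scale, beside 0.00 and 0.03 over all genes. Adcy5, an adenylyl cyclase prominent in dopamine signalling, fell (-0.75 ± 0.11 in females, adjusted p = 1.11e-06, and -0.82 ± 0.10 in males, adjusted p = 3.47e-08, edgeR), as did Gnaz, an inhibitory G protein subunit (-0.61 and -0.55), and Grk6, a receptor kinase (-0.56 and -0.46). Gnai2, an inhibitory G protein subunit abundant in microglia (0.81 and 0.85), and Rgs2, which speeds G protein inactivation (0.72 and 0.72), rose.

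Of 22 kinases, phosphatases, phosphodiesterases and channels, 12 fell and 0 rose in females and 13 fell and 1 rose in males, with medians of -0.33 and -0.33. The 1 that rose was Pde4b, another phosphodiesterase gene (0.32 ± 0.13, adjusted p = 0.0493), and this count became 0 in 4 of 8 alternative settings and without KO male 3 or 4 or any 1 of the 4 Myc males. Pde4d, which degrades cyclic AMP, fell (-0.83 ± 0.11 in females, adjusted p = 5.46e-07, and -0.62 ± 0.11 in males, adjusted p = 1.46e-05), and the protein kinase A catalytic subunit gene Prkaca also fell (-0.49 and -0.43), with Kcnj6, a potassium channel opened by D2-class receptors (-0.62 and -0.65). Among 10 receptor partners, 7 fell and 2 rose in each sex (medians -0.41 and -0.37), and the 2 that rose in males became 1 without KO male 4, Myc male 1 or Myc male 22. The protein 4.1N gene Epb41l1 fell (-0.53 and -0.48), and Adora2a, the adenosine receptor that pairs with D2 receptors in the striatum, rose (1.16 ± 0.29, adjusted p = 0.00196, and 1.40 ± 0.26, adjusted p = 6.68e-05). Of all genes 18.1% rose in females and 17.2% in males, shares close to 2 risen of 10 partners. Of 13 genes of dopamine synthesis, transport and breakdown, 2 rose in each sex, no more than those shares, and 0 fell in females and 1 in males. The 2 that rose were Gch1, which starts synthesis of the tyrosine hydroxylase cofactor (1.17 and 0.92), and Maob, a monoamine oxidase of astrocytes (0.60 and 0.55), while Slc18a2, the vesicular monoamine transporter, fell in males (-0.53 ± 0.18, adjusted p = 0.0214), a count of 1 that became 0 without KO male 4, KO male 21 or Myc male 1. In KA over KQ none of the 66 passed in either sex by edgeR or DESeq2, where 6 of them had no DESeq2 adjusted p in males. At an unadjusted p under 0.05 there were 1 of 66 in females and 11 of 66 in males, beside 595 and 2993 of all 28449 genes.

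**Figure D5:**
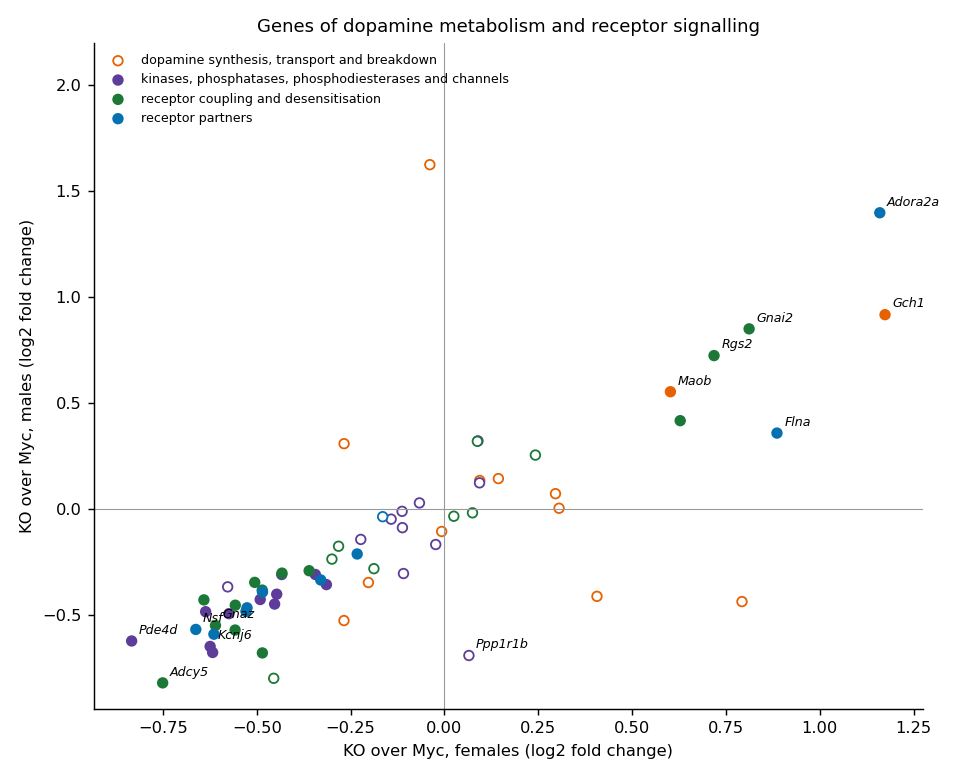
Log2 fold change of KO over Myc in females (x axis) and males (y axis) of the 66 genes of dopamine metabolism and receptor signalling, with colour for the list. Filled points passed in both sexes and open points did not. Adcy5 (-0.75, -0.82) and Pde4d (-0.83, -0.62) lie at the lower left, and Adora2a (1.16, 1.40) and Gch1 (1.17, 0.92) at the upper right.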

How the data were processed

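Hippocampal RNA of 40 mice was sequenced. The authors aligned reads with Rsubread to GRCm39 (mm39) and counted them per gene with featureCounts, and the deposited table holds these raw counts. The deposited DESeq2-normalised table was not used. The study's processing notes name FastQC 0.11.9 and DESeq2 1.38.3. Columns were matched to samples by sample number, and the sex-linked genes matched the labelled sex in 40 of 40 libraries. Total counts ran from 24342921 to 45982772 per mouse, and replicate pairs differed beyond counting noise (chi-square per degree of freedom 8.16 to 286). The highest values, 286 and 205, were the pairs of Myc female 32 with Myc females 11 and 31, and the next highest was 108. This mouse was kept in the female comparisons with Myc.

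Genes with at least 20 counts over all samples were fitted with edgeR 4.0.16 (R 4.3.3; TMM scaling, robust quasi-likelihood test, one mean for each of the 10 groups), with Benjamini-Hochberg adjustment over the 28449 genes and a threshold of 0.05 at any fold change. This threshold and the group means design served each comparison. CPM are the deposited counts relative to the TMM-adjusted library total, and log2 CPM for correlations used a prior count of 2. Counts below 3 are not told from 0, and error estimates cover the spread between these libraries. Whether animals shared litters or surgery days was not given in the sources used here. DESeq2 1.42.0, its size factors, other filters, the number-range covariate, and omission of libraries were alternatives.

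The members, lists and named genes were chosen with earlier results of these data known. Named were the members, up to 4 pathway genes per list and direction with the smallest p, the nearest tested gene on each side, and for members with a mean of at least 0.5 CPM the most correlated genes. Exon lengths and neighbours came from GENCODE, promoters from RefSeq. The code was tested on simulated data.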

Additional observations from a re-analysis of the deposited data

Results flagged for a closer look

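Among the 40 combinations of receptor gene and group with 4 or 5 mice, 2 held a mouse far from the rest of its group by Dixon's test, where chance gives about 1 in 20. KO female 34 had 15.6 CPM of Drd1, against 7.22 to 8.54 CPM in the other 3 KO females. WT male 10 had 0.279 CPM of Drd4 (9 counts), against 0.0654 to 0.106 CPM in the other 4 WT males.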

How the results depend on the processing

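No paired analysis was possible because the groups share no replicate numbers. Drd2 in KA over KQ passed in no setting: the log2 fold change was 0.13 to 0.22 in females and 0.27 to 0.31 in males over 8 settings. Without 1 mouse it was 0.12 to 0.29 and 0.15 to 0.40, and the difference between the sexes lay between -0.20 and 0.053. Drd5 kept its direction in each setting run. Fitting only the groups of the comparison gave 0.66 for KA over KO in females (not past the threshold), 0.66 for KQ over KO in females (not past), and 0.61 (KA over KO), 0.53 (KQ over KO) and -0.64 (KA over Myc) in males, the last 3 past it. The 4 mice with Ttr over 1000 CPM were females. Summed choroid plexus markers, Ttr included, reached at most 671 CPM in any male, 961 CPM in KA females and 46.2 CPM in Myc females. The 4 mice were therefore KO, WT or KQ females. Without these 4 mice, KA over KO in females was 0.67, as in the main fit, and no longer passed, with fewer mice in the fit. In males, where only the shared fit changed, KA over KO (0.60), KQ over KO (0.53) and KA over Myc (-0.63) passed. DESeq2 called KA over KO (0.59), KQ over KO (0.53) and KA over Myc (-0.62) in males. filterByExpr called KA over KO (0.59) and KA over Myc (-0.63) in males, and the number-range covariate KA over Myc (-0.64). With no filter, KQ over KO in females (0.68), WT over KO in males (0.57) and WT over Myc in males (-0.66) fell just short. Without 1 mouse, Drd5 over KO in females was 0.04 to 0.41 for WT, 0.46 to 0.80 for KA and 0.48 to 0.94 for KQ, and in males 0.48 to 0.67 for WT, 0.51 to 0.68 for KA and 0.44 to 0.61 for KQ. Over Myc it was -1.24 to -0.84 for WT, -0.83 to -0.45 for KA and -0.80 to -0.34 for KQ in females, and -0.75 to -0.55 for WT, -0.72 to -0.57 for KA and -0.79 to -0.63 for KQ in males. Directions turned round in values near 0. Drd2 in KA over WT females was 0.031 without the Ttr mice and -0.26 to 0.035 without 1 mouse. Drd4 in KA over KO males was 0.020 with the covariate and -0.38 to 0.16 without 1 mouse. The cause of these shifts was not tested. Drd3 and Drd4, with at most 19 counts a mouse, are limited by depth.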
